A study of Mus musculus with 4 samples.

Results

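The 38 genes described here encode components of the PI3K, AKT and mTOR pathway. They were taken by gene symbol from the 31053 genes of the deposited count matrix, and all 38 were found. By role they comprise 4 catalytic and 3 regulatory subunits of PI3K, 6 adaptors and RAS activators, 3 genes for PDK1 and AKT, 4 phosphatases, 5 AKT substrates or genes of glucose uptake, 3 genes for the TSC complex and Rheb, 6 genes for the mTOR complexes and 4 substrates of mTOR complex 1. Nuclei came from the mediobasal hypothalamus, the part of the hypothalamus that includes the arcuate nucleus. The mice of both groups were wild-type, ate chow ad libitum and received either saline or insulin. Single nuclei were profiled by droplet-based sequencing in 2 Saline and 2 Insulin libraries. The labels state no dose, route, time after treatment, age or sex, and do not say whether a library holds 1 mouse or a pool, so p-values reflect only how far these 4 libraries vary.

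Insulin and related growth factors activate receptors whose adaptors recruit the lipid kinase PI3K, a dimer of a regulatory and a catalytic subunit. The lipid that PI3K makes brings the kinases PDK1 and AKT to the membrane, and AKT then phosphorylates GSK3, the RabGAPs TBC1D1 and TBC1D4, and the TSC complex, a brake on the GTPase Rheb and so on mTOR complex 1. In hypothalamic neurons the pathway is known as a route by which insulin and leptin act on feeding and glucose balance. It works by phosphorylation, which transcript counts do not measure.

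The 4 libraries held 36523 annotated nuclei, with 8352 to 9796 nuclei and 63590421 to 71391593 unique molecular identifiers (UMIs) each, and the authors assigned 8 cell type labels and 37 neuron populations. Levels are counts per 1000000 UMIs (CPM) of the nuclei of a type in a library, given as a mean, or mean ± SD, over n = 4 libraries. They are not compared between genes. Libraries are named by group and by the run that the deposited annotation gives each nucleus, with 1 Saline and 1 Insulin library in each of the runs 230 and 232. The runs differed in sex-linked RNA. Both run 232 libraries held Xist, an RNA made from the inactive X chromosome of female cells, at 1614 and 1713 CPM over all nuclei, against 4.53 and 4.88 CPM for run 230. Uty, a gene of the Y chromosome, had 175 and 177 CPM for run 230, against 1.02 and 1.40 CPM for run 232, so run and sex of the mice cannot be told apart. Of 36205 distinct barcode sequences, 318 occurred in 2 or more libraries. Marker genes went in part against the Endothelial label. Its 1441 nuclei had 1.69 CPM of Cldn5 and 0.822 CPM of Slco1a4, both markers of brain endothelium. The 362 nuclei labelled Mural Cell had 538 and 1011 CPM of them. The 5 endothelial markers, all detected, summed to 241 to 322 CPM in the first label and to 3171 to 3725 CPM in the second. Of the remaining labels Ependymo had the highest mean sum, 42.0 CPM, so the Endothelial label still held more of this list than they did. Nuclei labelled Endothelial carried 2423 CPM of Col23a1 and 84.4 CPM of Rax from the list of 5 markers of ependymal cells and tanycytes. That list summed to 2347 to 2945 CPM there, most of it Col23a1, and to 1498 to 2104 CPM in the Ependymo label. The 5 astrocyte markers summed to 2575 to 3351 CPM in the Endothelial label, against 6147 to 6589 CPM in astrocytes. The Mural Cell label held mural markers (2342 to 2854 CPM over 5 of 5 genes) and fibroblast markers (292 to 756 CPM over 5 of 5 genes) beside the endothelial ones. Both groups of nuclei are therefore called by their labels only. Nuclei labelled Micro, the microglia, carried 525 to 1797 CPM of neuron markers over 4 of 5 genes, with Tubb3 at 0, against 2947 to 3070 CPM in neurons, and the part of this RNA in their pathway gene levels was not tested. The Ependymo label had 16 nuclei in its smallest library.

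Across the 8 labels the pathway genes differed about as often as all genes tested, and some had sharp peaks. In CPM, the PI3K subunits Pik3cg and Pik3cd peaked in microglia, Phlpp1 and Gab1 in oligodendrocytes, Deptor in the nuclei labelled Endothelial, and Tbc1d4 and Tbc1d1 in those labelled Mural Cell, while neurons were low in Gab1, Inppl1 and Pik3r1. Each label was compared with the mean of the other 7 by edgeR's quasi-likelihood test, with libraries scaled by TMM (edgeR's trimmed mean of M-values), Benjamini-Hochberg adjustment over 14597 genes and a threshold of 0.05, and log2 values below are this difference. Of 304 tests of the 38 genes 144 passed, 76 higher and 68 lower, which is 47.4% against 46.4% of the tests of all genes (25.2% higher and 21.3% lower). Any difference among the labels was called for 36 of the 38 genes, against 93.8% of all genes. Pdpk1 (adjusted p = 0.800) and Akt1s1 (adjusted p = 0.0744) did not pass in that edgeR F test. The median range of mean log2(CPM + 1) between the highest and the lowest label was 1.69 for the 38 genes and 2.25 for all genes tested, and it ran from 0.38 for Pdpk1 to 6.68 for Pik3cd.

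By label, neurons had 24 of the 38 genes past the threshold, 8 higher and 16 lower (69.4% of all genes passed there, 36.7% higher and 32.7% lower). Oligodendrocytes had 23, 14 higher and 9 lower (58.5%, with 28.4% higher and 30.1% lower), and Ependymo 20, 7 higher and 13 lower (40.8%, with 20.5% and 20.2%). Astrocytes had 17, 9 higher and 8 lower (53.8%, with 28.5% and 25.2%), and Mural Cell 16, 10 higher and 6 lower (33.5%, with 17.9% and 15.6%). Microglia had 15, 12 higher and 3 lower (34.8%, with 23.1% and 11.7%). Endothelial had 15, 6 higher and 9 lower (40.7%, with 22% and 18.8%), and oligodendrocyte precursors (OPC) 14, 10 higher and 4 lower (39.8%, with 24.2% and 15.6%). By role, where 46.4% of the tests of all genes passed, 20 of 32 tests of the phosphatases passed, 29 of 48 of the adaptors, 24 of 40 of the AKT substrates and 11 of 24 of the TSC complex and Rheb. For the catalytic subunits 13 of 32 passed, for the mTOR complexes 19 of 48, for the regulatory subunits 9 of 24, for the mTOR complex 1 substrates 12 of 32 and for PDK1 and AKT 7 of 24. CPM is a share of a type's UMIs, and median UMIs per nucleus ran from 1919.5 in Mural Cell and 2354 in oligodendrocytes to 8445 in neurons. Counted as UMIs per nucleus, 20 of the 38 genes were highest in neurons, against 2 in CPM. Among the genes with peaks, Tbc1d1 was then highest in neurons (0.781 UMIs per nucleus, against 0.474 in Mural Cell) and Gab1 in Ependymo (1.49, against 1.20 in oligodendrocytes), while Pik3cg, Pik3cd, Phlpp1, Deptor and Tbc1d4 were highest in the same label on both scales. On that scale, where the median of all genes moved by up to log2 1.28 in a label, 17 of the 144 calls passed in the opposite direction. In neurons Akt1s1, Akt2, Cbl, Eif4ebp2, Pik3ca, Rheb, Rictor and Tbc1d4 passed as lower in CPM and as higher per nucleus. In oligodendrocytes Grb2, Gsk3a, Inpp5k, Pik3cb, Rheb, Rictor, Rps6kb1, Rps6kb2 and Shc1 passed as higher in CPM and as lower per nucleus. Shc1, Rhoq, Pik3r1, Pik3r3 and Phlpp1 were lowest in neurons in mean CPM but not per nucleus. Mean UMIs per neuron nucleus were 0.0565 for Shc1, 0.230 for Rhoq and 0.0176 for Pik3r3, against 0.0435, 0.148 and 0.0107 in oligodendrocytes. Pik3r1 had 0.699 in neurons and 0.610 in Ependymo, and Phlpp1 1.46 in neurons and 0.941 in Mural Cell. Gab1 and Inppl1 were lowest in neurons on both scales.

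**Figure D1:**
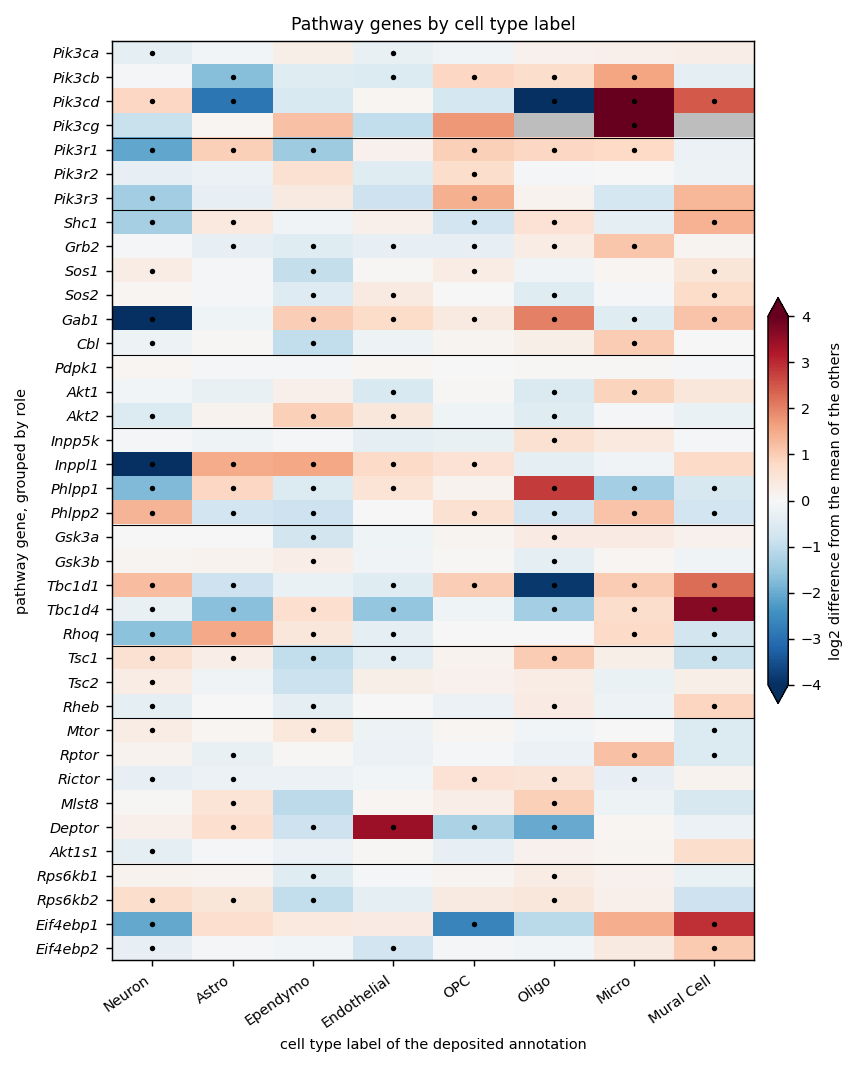
Log2 difference of each of the 38 pathway genes (rows, grouped by role) between a cell type label (columns) and the mean of the other labels. Black dots mark edgeR adjusted p under 0.05, grey cells had 0 UMIs, and colours saturate at 4. The strongest colours sit in few genes, such as Pik3cg and Pik3cd in Micro, Deptor in Endothelial, Tbc1d4 in Mural Cell and Gab1 and Inppl1 in Neuron, and Pdpk1 has no dot.

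Among the catalytic subunits, the widely expressed Pik3ca lay between 69.4 ± 3.70 CPM in neurons and 127 CPM in Mural Cell, and passed only as lower in neurons (log2 -0.34) and Endothelial (log2 -0.31). Pik3ca did not pass in neurons without Saline 232 (log2 -0.22), nor in Endothelial without Saline 230 (log2 -0.20), without Saline 232 (log2 -0.30) or without TMM (log2 -0.15). Pik3cg, the subunit used downstream of G protein-coupled receptors in leukocytes, was at 77.6 and 89.7 CPM in the Saline and 156 and 88.1 CPM in the Insulin libraries of microglia, from 192 UMIs. Every other label had at most 0.947 CPM of Pik3cg on average. The 0 UMIs in oligodendrocytes and Mural Cell allow up to 0.402 and 3.17 CPM, for counting error only, so no fold is given. Pik3cd (chromosome 4, 149649168 to 149702571, minus strand, GRCm38), the other leukocyte subunit, was at 168 and 120 CPM in the Saline and 207 and 123 CPM in the Insulin libraries of microglia, log2 4.87 ± 0.20 (SE) over the other labels (edgeR adjusted p = 1.04e-20). For both genes every microglia library lay above every library of the other labels. Pik3cd was also higher in Mural Cell (39.0 ± 11.8 CPM, log2 2.46) and neurons (11.7 CPM, log2 0.84), and lower in astrocytes (1.22 ± 0.997 CPM, log2 -2.88, 21 UMIs) and oligodendrocytes (4 UMIs in all, log2 -4.06). Pik3cb was highest in microglia as well (124 ± 45.2 CPM, log2 1.58) and lowest in astrocytes (14.3 ± 1.66 CPM, log2 -1.70).

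Of the regulatory subunits, Pik3r1 (chromosome 13, 101680563 to 101768217, minus strand), which encodes p85α and shorter forms, was at 55.1 and 87.3 CPM in the Saline and 69.8 and 76.4 CPM in the Insulin libraries of neurons. That is log2 -2.07 ± 0.15 (SE) relative to the other labels (edgeR adjusted p = 1.29e-14). It was higher in microglia (465 CPM, log2 0.81), astrocytes (422 CPM, log2 0.95), OPC (420 CPM, log2 0.95) and oligodendrocytes (379 CPM, log2 0.84), and no neuron library reached a library of these 4 labels. The Ependymo label was lower too (114 ± 27.3 CPM, log2 -1.41). Pik3r2 passed only in OPC (13.6 CPM, log2 0.71). Pik3r3 was higher in OPC (9.39 ± 3.64 CPM, log2 1.43) and lower in neurons (1.85 CPM, log2 -1.39). Gm49337 overlaps Pik3r3 on the same strand, so their reads may be split. Pik3r2 did not pass in OPC without Insulin 230 (log2 0.67), without Saline 232 (log2 0.49) or without TMM (log2 0.55).

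The adaptors link receptors to PI3K and RAS. Gab1 (chromosome 8, 80764438 to 80880519, minus strand), a docking protein that binds PI3K, had the widest range among them. In neurons Gab1 was at 9.23 and 8.32 CPM in the Saline and 8.26 and 11.99 CPM in the Insulin libraries, log2 -4.57 ± 0.18 (SE) relative to the other labels (edgeR adjusted p = 6.42e-21). It was higher in oligodendrocytes (474 ± 71.1 CPM, log2 2.03), Mural Cell (374 CPM, log2 1.14), Ependymo (289 CPM, log2 0.97) and Endothelial (270 CPM, log2 0.73). The lowest library of any other label had 77.6 CPM of Gab1, in microglia, above every neuron library. Shc1, an adaptor that leads to RAS, was also low in neurons (5.89 CPM, log2 -1.34) and high in Mural Cell (38.6 ± 3.35 CPM, log2 1.40). Grb2, which binds SHC1 and SOS, and Cbl, a ubiquitin ligase, were highest in microglia (162 CPM, log2 1.10 and 166 CPM, log2 1.02). The RAS exchange factors Sos1 and Sos2 were both higher in Mural Cell (log2 0.49 and 0.73) and both lower in Ependymo (log2 -0.97 and -0.53). Sos1 did not pass in Mural Cell without Insulin 232 (log2 0.41) or without Saline 232 (log2 0.35).

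PDK1 phosphorylates AKT. Pdpk1, which encodes PDK1, lay between 71.2 CPM in astrocytes and 93.2 CPM in Endothelial and passed in no label. Akt1 was higher in microglia (32.2 CPM, log2 0.90) and lower in oligodendrocytes (10.6 CPM, log2 -0.59) and Endothelial (13.3 CPM, log2 -0.61). Akt2, the isoform tied to insulin action on glucose, was higher in Ependymo (38.2 CPM, log2 0.95) and Endothelial (31.1 CPM, log2 0.46) and lower in neurons (14.9 CPM, log2 -0.54) and oligodendrocytes (14.2 CPM, log2 -0.47). Akt1 did not pass in microglia without Saline 232 (log2 0.72), nor in oligodendrocytes without Saline 232 (log2 -0.52), nor in Endothelial without Insulin 232 (log2 -0.33), without Saline 232 (log2 -0.45) or without TMM (log2 -0.46). Akt2 did not pass in Ependymo without Insulin 232 (log2 0.74), nor in Endothelial without Insulin 232 (log2 0.41), nor in oligodendrocytes without Insulin 232 (log2 -0.39) or without Saline 232 (log2 -0.39).

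The phosphatases end the signal. Phlpp1 (chromosome 1, 106171752 to 106394250, plus strand), which dephosphorylates AKT, was at 2333 and 2033 CPM in the Saline and 2397 and 2060 CPM in the Insulin libraries of oligodendrocytes, log2 2.80 ± 0.09 (SE) over the other labels (edgeR adjusted p = 4.32e-25). Astrocytes (699 CPM, log2 0.84) and Endothelial (701 CPM, log2 0.54) were higher as well, and neurons (151 CPM, log2 -1.77), microglia (216 CPM, log2 -1.37) and Mural Cell lower. Its paralog Phlpp2 passed in 7 labels, 3 higher and 4 lower. Among these, it passed opposite to Phlpp1 in neurons (146 CPM, log2 1.37), microglia (145 CPM, log2 1.16), astrocytes (37.6 CPM, log2 -0.78) and oligodendrocytes (36.5 CPM, log2 -0.76). Over the 8 labels, which share the 4 libraries, mean levels of Phlpp1 and Phlpp2 had a Pearson correlation of -0.66. The paralog and complex pairs compared this way ran from -0.76 (Mtor and Rictor) to 0.76 (Rps6kb1 and Rps6kb2). Over 35 neuron populations the value for Phlpp1 and Phlpp2 was 0.20. Inppl1, which encodes the lipid phosphatase SHIP2, was at 0.478 to 0.596 CPM in the neuron libraries (119 UMIs, log2 -4.58 ± 0.18 (SE), edgeR adjusted p = 3.12e-21). No other label had under 6.41 CPM of Inppl1 on average. It was highest in Ependymo (24.9 ± 10.3 CPM, log2 1.55) and astrocytes (20.3 CPM, log2 1.47). Inpp5k, an inositol phosphatase, passed only in oligodendrocytes (43.7 CPM, log2 0.60).

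Among AKT substrates, the kinases Gsk3b and Gsk3a, which restrain glycogen synthesis, differed by less than 1 log2 unit in every label. Gsk3b was lower in oligodendrocytes (192 CPM, log2 -0.37), where Gsk3a was higher (25.7 CPM, log2 0.32). Gsk3a did not pass in oligodendrocytes by DESeq2 (log2 0.27), with edgeR RLE size factors (log2 0.27), without Insulin 230 (log2 0.26), without Insulin 232 (log2 0.29) or without TMM (log2 0.11). The RabGAPs, which hold back vesicles with glucose transporters until AKT phosphorylates them, varied more. Tbc1d4 (chromosome 14, 101442360 to 101609191, minus strand) was at 537 and 583 CPM in the Saline and 441 and 421 CPM in the Insulin libraries of Mural Cell, log2 3.64 ± 0.12 (SE) (edgeR adjusted p = 2.51e-23). No other label had over 76.8 CPM of Tbc1d4 on average, and astrocytes (15.4 ± 1.52 CPM, log2 -1.66), Endothelial (20.8 ± 4.59 CPM, log2 -1.54) and oligodendrocytes (17.9 CPM, log2 -1.34) were lower. Tbc1d1 (chromosome 5, 64156305 to 64351486, plus strand) was also highest in Mural Cell (182 CPM, log2 2.22), and higher in neurons (81.0 CPM, log2 1.23), microglia and OPC. In oligodendrocytes Tbc1d1 was at 1.70 and 4.81 CPM in the Saline and 2.38 and 4.62 CPM in the Insulin libraries, from 25 UMIs (log2 -3.86 ± 0.22 (SE)). Rhoq, a small GTPase also called TC10 and linked to glucose transport, was highest in astrocytes (152 CPM, log2 1.51) and lowest in neurons (23.8 CPM, log2 -1.63).

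**Figure D2:**
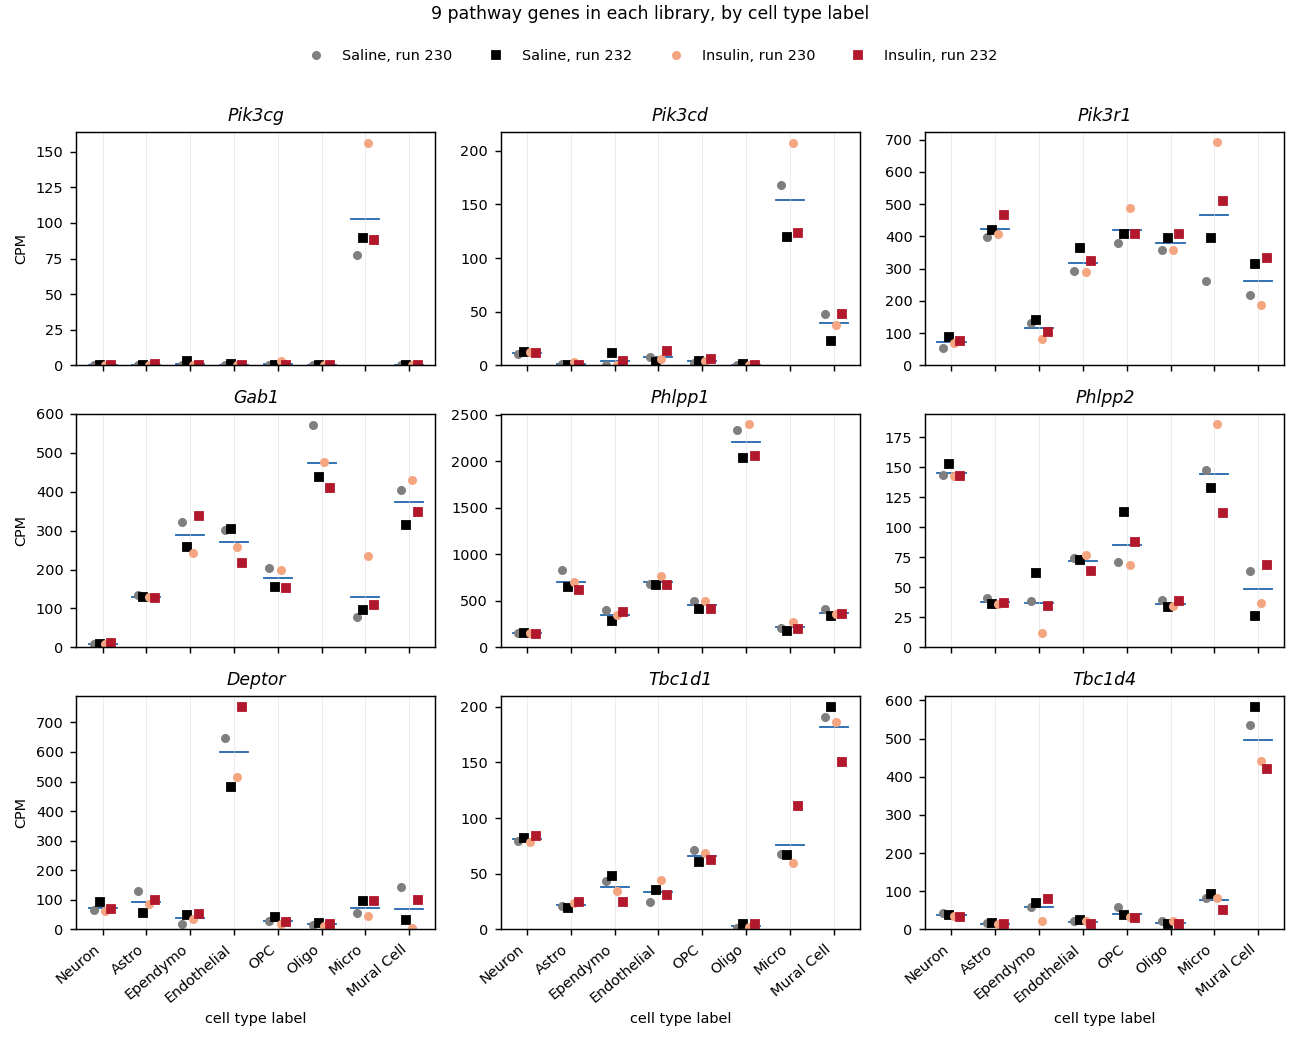
CPM of 9 pathway genes in each of the 4 libraries, by cell type label. Grey and black symbols are Saline, light and dark red are Insulin, circles are run 230 and squares run 232, and blue lines are means over 4 libraries. Each panel has its own axis from 0, and the leading label stands clear of the others in all 4 libraries for Pik3cg, Pik3cd, Phlpp1, Deptor, Tbc1d1 and Tbc1d4, while Pik3r1 and Phlpp2 have several high labels.

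The TSC complex restrains Rheb. Tsc1 was higher in oligodendrocytes (133 CPM, log2 1.03) and neurons (115 CPM, log2 0.62), and lower in Ependymo and Mural Cell. Its partner Tsc2 passed only in neurons (15.1 CPM, log2 0.30). Rheb was higher in Mural Cell (166 CPM, log2 0.85) and oligodendrocytes (90.6 CPM, log2 0.33), and lower in neurons (66.0 CPM, log2 -0.35). Tsc2 did not pass in neurons without Insulin 232 (log2 0.26), without Saline 232 (log2 0.32) or without TMM (log2 0.24). Rheb did not pass in oligodendrocytes without TMM (log2 0.11).

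Of the mTOR complex genes, Deptor (chromosome 15, 55112317 to 55259271, plus strand), an inhibitor that binds mTOR, varied most. The nuclei labelled Endothelial had 645 and 482 CPM in the Saline and 515 and 752 CPM in the Insulin libraries, log2 3.43 ± 0.15 (SE) (edgeR adjusted p = 5.45e-20). Astrocytes followed at 92.9 ± 30.6 CPM (log2 0.66), and oligodendrocytes (17.4 CPM, log2 -2.03) and OPC (28.0 ± 9.56 CPM, log2 -1.26) were lower. In the Mural Cell label, which held the endothelial markers Cldn5 and Slco1a4, Deptor was at 70.4 ± 62.4 CPM. The kinase Mtor ranged from 46.2 CPM in oligodendrocytes to 81.6 CPM in Ependymo and was higher in neurons (65.0 CPM, log2 0.31). Rptor, the scaffold of complex 1, was higher in microglia (344 CPM, log2 1.17). Rictor, the scaffold of complex 2, was higher in OPC (142 CPM, log2 0.56) and oligodendrocytes (132 CPM, log2 0.51) and lower in neurons (87.3 CPM, log2 -0.33). Mlst8, a subunit of both complexes, was higher in oligodendrocytes (10.1 CPM, log2 0.95). Akt1s1, which encodes the AKT substrate PRAS40 of complex 1, passed only in neurons (11.1 CPM, log2 -0.38). For any difference among labels Akt1s1 did not pass (edgeR F test, adjusted p = 0.0744). Rictor did not pass in neurons without Saline 232 (log2 -0.20). Akt1s1 did not pass in neurons without Saline 230 (log2 -0.29), without Saline 232 (log2 -0.28) or without the Endothelial and Mural Cell labels (log2 -0.26).

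The substrates of mTOR complex 1 control translation. Rps6kb1, which encodes S6 kinase 1, ran from 105 CPM in Ependymo (log2 -0.48) to 140 CPM in microglia, and was higher in oligodendrocytes (log2 0.31). Rps6kb2, which encodes S6 kinase 2, was higher in neurons (43.2 ± 12.7 CPM, log2 0.71). Its Ependymo value of 14.2 ± 17.6 CPM (log2 -0.98) rested on 24 UMIs and ran from 0 to 39.5 CPM over the libraries. Eif4ebp1, a repressor of cap-dependent translation, was at 5.31 and 9.83 CPM in the Saline and 24.9 and 20.5 CPM in the Insulin libraries of Mural Cell (14 UMIs, log2 2.91 ± 0.62 (SE), edgeR adjusted p = 0.000289). It was lower in neurons (0.559 CPM, log2 -2.06), and OPC passed as lower on 2 UMIs. Its paralog Eif4ebp2 was also higher in Mural Cell (87.6 ± 41.9 CPM, log2 1.05) and lower in Endothelial (28.0 ± 8.26 CPM, log2 -0.76) and neurons (31.6 CPM, log2 -0.31). Rps6kb1 did not pass in Ependymo without Saline 232 (log2 -0.32), nor in oligodendrocytes without Saline 230 (log2 0.22) or without TMM (log2 0.08). Rps6kb2 did not pass in Ependymo without Insulin 232 (log2 -0.54) or without Saline 230 (log2 -0.83). Eif4ebp1 did not pass in OPC without Insulin 232 (log2 -2.70) or without Saline 232 (log2 -2.24).

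A list of 46 other genes of the pathway had 44 genes tested. Of its 352 tests 170 passed, 89 higher and 81 lower (48.3%, against 46.4% of the tests of all genes, with 25.2% higher and 21.3% lower). Inpp5d, which encodes the lipid phosphatase SHIP1 of blood cells, was at 921 to 2215 CPM in the microglia libraries and at most 25.2 CPM on average elsewhere. Pik3r6, a regulatory partner of Pik3cg, was at 27.5 to 80.8 CPM in microglia, with 0 UMIs in oligodendrocytes and Ependymo. Prr5l, linked to mTOR complex 2, was at 1930 to 2641 CPM in oligodendrocytes (log2 6.82).

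Within neurons, each population was tested against the average of the remaining ones in the same way. The authors' 37 populations carry gene names, and 33 of 39 name genes were highest in the population named for them. The authors assigned the populations from these same nuclei, so this count is no independent check of them. A total of 35 populations had at least 10 nuclei in every library, and 34 of the 38 pathway genes passed the filter on low counts among 13858 genes. Inppl1, Eif4ebp1, Pik3cg and Pik3r3 did not. Of 1190 tests 245 passed, 140 higher and 105 lower, or 20.6% against 21.2% of the tests of all genes (13% higher and 8.16% lower). Among the 1361 genes with 0 UMIs in a whole population, Shc1 included, 8343 tests passed as higher and 164 as lower, and without these genes the shares of all tests were 12.5% and 9.01%. Any difference among populations was called for 29 of the 34 genes, against 81.6% of all genes, and Akt1, Tsc2, Pik3r2, Mlst8 and Gsk3a did not pass. The median range over populations was 1.20 log2 units for the 34 genes and 1.99 for all genes. The widest ranges were those of Gab1 (5.63), Deptor (4.88) and Shc1 (4.52), and the narrowest those of Rps6kb1 (0.50), Rictor (0.64) and Gsk3b (0.66). By role, 42 of 105 tests of the phosphatases passed, 22 of 70 of the regulatory subunits, 48 of 175 of the AKT substrates and 48 of 210 of the mTOR complexes, where 21.2% of the tests of all genes passed. For the catalytic subunits 19 of 105 passed, for the adaptors 36 of 210, for the TSC complex and Rheb 12 of 105, for PDK1 and AKT 10 of 105 and for the mTOR complex 1 substrates 8 of 105. M8.Nr5a1 had the most genes past the threshold, 11 higher and 3 lower of 34 (44.9% of all genes passed there, 26.8% higher and 18.1% lower), and M31.Th had 10 higher and 3 lower (23.9%, with 13.5% and 10.4%).

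**Figure D3:**
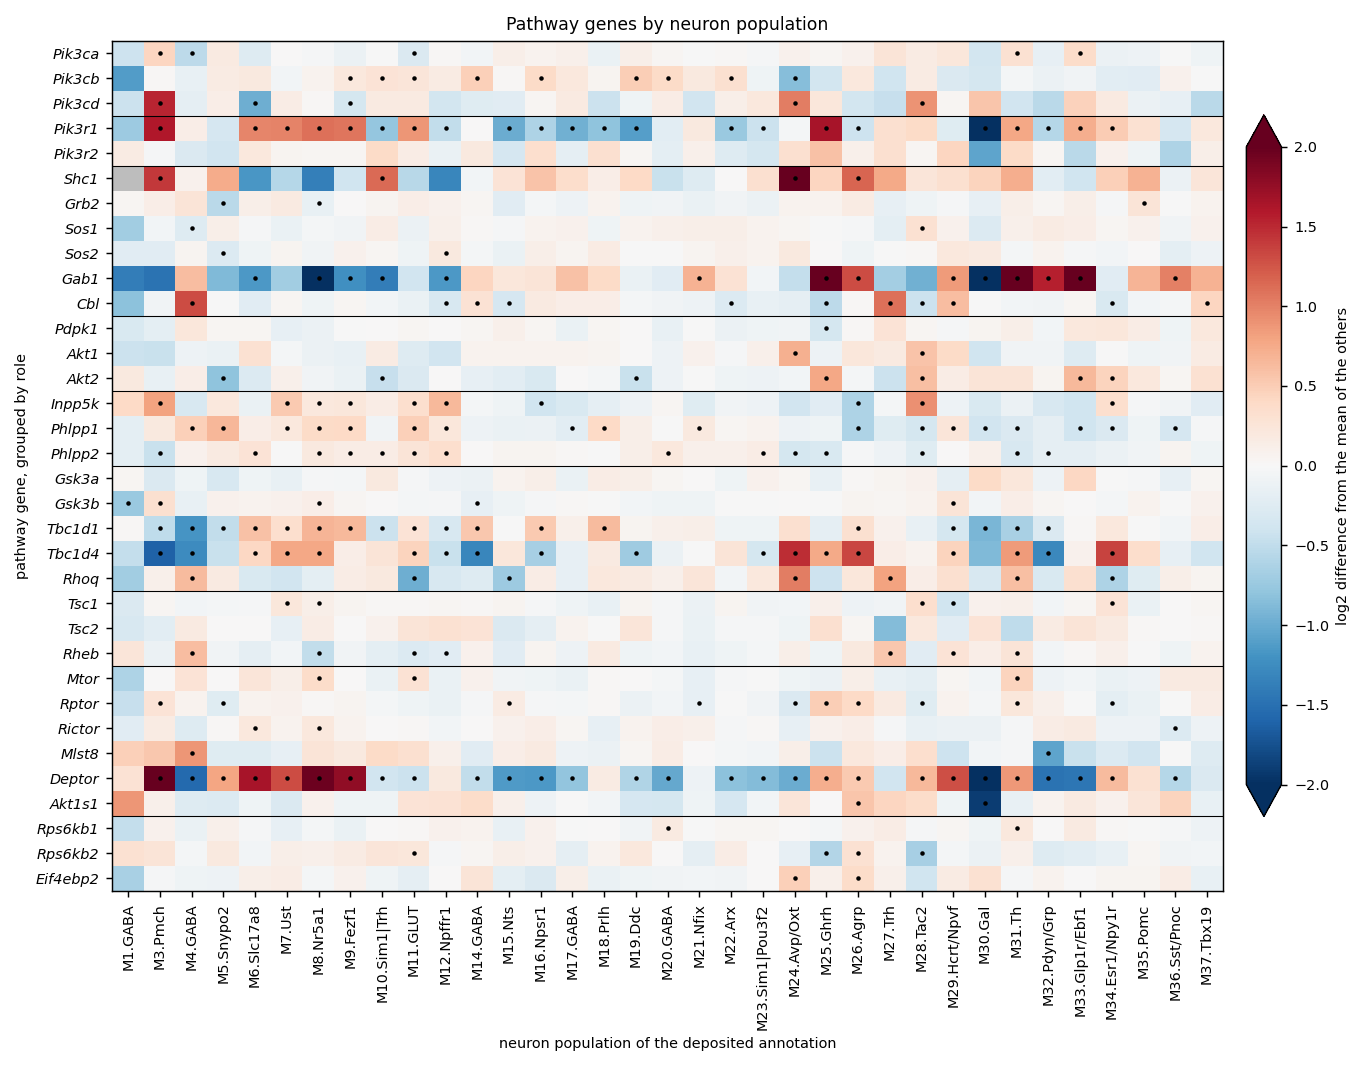
Log2 difference of 34 pathway genes (rows, grouped by role) between a neuron population (columns) and the mean of the other 34 populations. Black dots mark edgeR adjusted p under 0.05, the grey cell had 0 UMIs, and colours saturate at 2. Deptor, with 28 dots, and Pik3r1, with 22, carry the most, and Tsc2, Pik3r2 and Gsk3a have none.

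Deptor passed in 28 of the 35 populations, 12 higher and 16 lower, the most of any of the 34 genes. It was highest in M3.Pmch, the neurons that make melanin-concentrating hormone, at 463 and 554 CPM in the Saline and 379 and 410 CPM in the Insulin libraries (744 UMIs), log2 3.37 ± 0.11 (SE) (edgeR adjusted p = 7.3e-56). The next populations were M8.Nr5a1 (176 ± 13.3 CPM, log2 1.96), M9.Fezf1 (159 CPM, log2 1.77) and M6.Slc17a8 (156 CPM, log2 1.65). Every M3.Pmch library lay above every library of the other populations, while M8.Nr5a1, M9.Fezf1 and M6.Slc17a8 overlapped one another. The largest differences below the other populations were those of M30.Gal (16.8 ± 9.29 CPM, log2 -1.99), M4.GABA (15.5 CPM, log2 -1.55) and M32.Pdyn/Grp (21.7 CPM, log2 -1.48).

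Gab1, low in neurons as a whole, was not evenly low among them. M31.Th, named for the enzyme of dopamine synthesis, had 61.6 and 92.3 CPM in the Saline and 76.7 and 65.6 CPM in the Insulin libraries (276 UMIs), log2 3.36 ± 0.18 (SE) (edgeR adjusted p = 1.12e-35). M25.Ghrh, the neurons of growth hormone-releasing hormone, had 54.4 and 51.9 CPM in the Saline and 57.1 and 44.0 CPM in the Insulin libraries (109 UMIs, log2 2.83), and M33.Glp1r/Ebf1 had 33.6 ± 12.5 CPM (log2 2.06). M8.Nr5a1, with 1954 nuclei, had 1.65 ± 0.407 CPM (log2 -2.04), and M30.Gal passed as lower on 1 UMI, so no fold is given. A population with 0 UMIs has no finite mean on the log scale, and edgeR's test against the mean of the others then seldom calls a population lower. Without Insulin 230 the single UMI of M30.Gal is gone, without Saline 230 the single UMI of M1.GABA, and in both cases Gab1 did not pass as lower in M8.Nr5a1 (log2 -1.90 and -2.03). The call in M30.Gal was lost without Insulin 232, Saline 230 or Saline 232. No library of M31.Th or M25.Ghrh overlapped those of M8.Nr5a1. Gm31105 lies antisense to Gab1, and the part of its reads was not tested.

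Shc1 was highest in M24.Avp/Oxt, the vasopressin and oxytocin neurons, at 16.4 and 17.1 CPM in the Saline and 28.9 and 28.2 CPM in the Insulin libraries (41 UMIs, log2 2.13). It was higher also in M3.Pmch (13.8 ± 3.46 CPM, log2 1.41), M26.Agrp (13.3 CPM, log2 1.17) and M10.Sim1|Trh, and its 0 UMIs in M1.GABA allow up to 11.3 CPM. With M1.GABA in the fit Shc1 was not called lower anywhere. Without M1.GABA, an alternative chosen after seeing the data, it passed as higher in the same 4 populations (log2 1.95 in M24.Avp/Oxt) and as lower in 6, most in M8.Nr5a1 (log2 -1.55), M12.Npffr1 (log2 -1.48) and M6.Slc17a8 (log2 -1.36). Cbl was higher in M4.GABA (158 ± 29.7 CPM, log2 1.31) and M27.Trh (147 ± 46.8 CPM, log2 1.11), and lowest in M25.Ghrh (53.7 CPM, log2 -0.52). Cbl did not pass in M25.Ghrh without Saline 230 (log2 -0.31).

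Pik3r1 passed in 22 populations, 10 higher and 12 lower. M25.Ghrh had 143 and 231 CPM in the Saline and 171 and 246 CPM in the Insulin libraries, log2 1.65 ± 0.12 (SE) (edgeR adjusted p = 1.96e-25), and M3.Pmch had 175 ± 58.2 CPM (log2 1.60). M8.Nr5a1 (120 CPM, log2 1.10), M9.Fezf1 (122 CPM, log2 1.07), M7.Ust (117 CPM, log2 0.99) and M6.Slc17a8 (120 CPM, log2 0.98) were higher too. M30.Gal was lowest at 17.6 ± 11.5 CPM (21 UMIs, log2 -2.03), followed by M19.Ddc (29.0 CPM, log2 -1.11). Over all neurons Pik3r1 was higher in run 232 than in run 230, by log2 0.66 in Saline and 0.13 in Insulin. Pik3r1 and Deptor had a Pearson correlation of 0.64 between mean log2 levels over the 35 populations, where the 561 pairs of the 34 genes ran from -0.55 to 0.72 with a median of 0.13. The highest value was that of Akt1 and Rhoq. The populations share the 4 libraries and differ in depth, so these correlations are descriptions.

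Of the catalytic subunits, Pik3cd was higher in M3.Pmch (31.6 ± 5.89 CPM, log2 1.53, 49 UMIs), M24.Avp/Oxt (24.1 CPM, log2 1.03) and M28.Tac2 (log2 0.90). Pik3cb was lower in M24.Avp/Oxt (21.0 ± 1.17 CPM, log2 -0.86) and higher in 8 populations, most in M19.Ddc (52.2 CPM, log2 0.49). Pik3ca passed in 5 populations and was lowest in M4.GABA (46.2 CPM, log2 -0.52). Pik3cd did not pass in M24.Avp/Oxt without Saline 232 (log2 0.89), nor in M28.Tac2 without Insulin 232 (log2 0.62). Pik3ca did not pass in M4.GABA without Saline 230 (log2 -0.34).

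Each RabGAP passed in 18 populations. Tbc1d4 was highest in M24.Avp/Oxt at 136 and 104 CPM in the Saline and 64.8 and 72.6 CPM in the Insulin libraries, log2 1.48 ± 0.18 (SE) (edgeR adjusted p = 8.54e-12), then in M34.Esr1/Npy1r (89.6 ± 18.7 CPM, log2 1.35) and M26.Agrp (85.6 ± 24.3 CPM, log2 1.34), and the libraries of these 3 populations overlapped. It was lowest in M3.Pmch (10.0 ± 2.11 CPM, log2 -1.62), where the mTOR inhibitor Deptor was highest. Tbc1d1 was lowest in M4.GABA (30.0 ± 14.8 CPM, log2 -1.19) and highest in M18.Prlh (114 CPM, log2 0.63), M9.Fezf1 (106 CPM, log2 0.66) and M8.Nr5a1 (105 CPM, log2 0.68). Rhoq was higher in M24.Avp/Oxt (46.3 CPM, log2 1.03) and M27.Trh (46.1 CPM, log2 0.80) and lowest in M11.GLUT (11.6 CPM, log2 -0.98). Rhoq did not pass in M27.Trh without Saline 230 (log2 0.58).

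Of the phosphatases, Phlpp1 passed in 18 populations, from log2 -0.61 in M26.Agrp to log2 0.66 in M5.Snypo2, and Phlpp2 in 14, from log2 -0.45 in M3.Pmch to log2 0.34 in M12.Npffr1. Inpp5k was higher in M28.Tac2 (56.9 CPM, log2 0.92), M3.Pmch (51.7 CPM, log2 0.80) and 6 other populations. Inpp5k did not pass in M3.Pmch without Insulin 230 (log2 0.43).

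**Figure D4:**
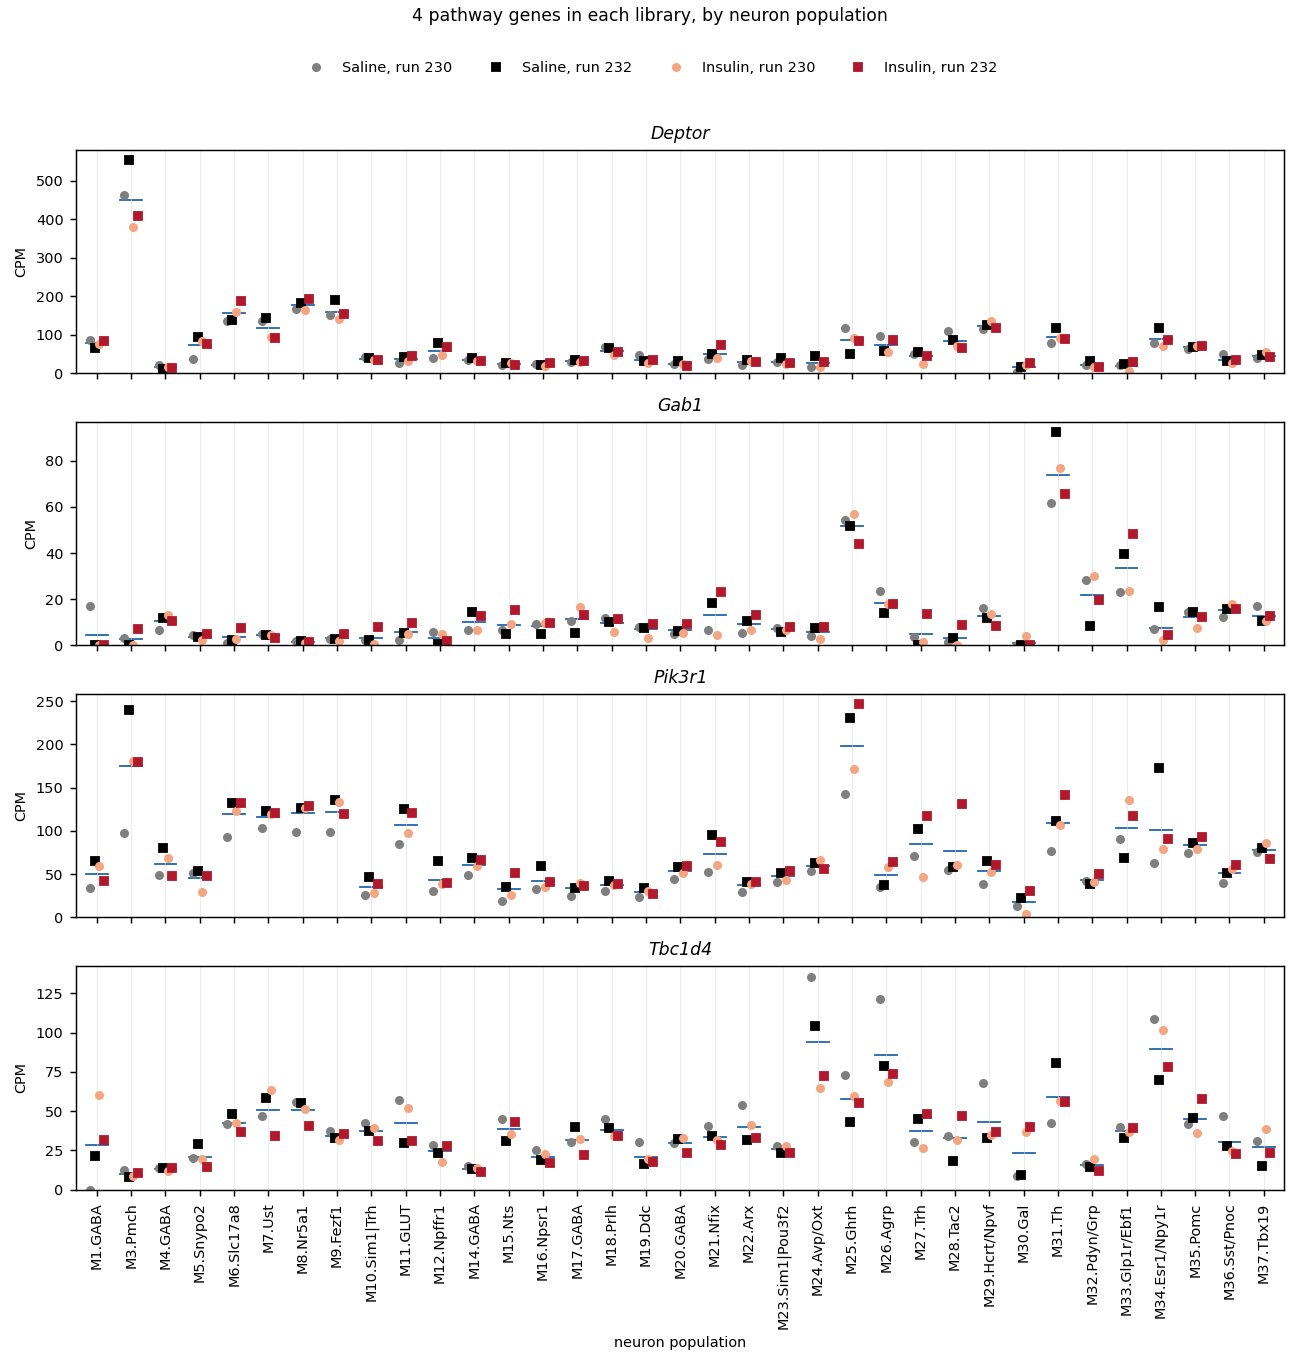
CPM of Deptor, Gab1, Pik3r1 and Tbc1d4 in each of the 4 libraries, by neuron population. Grey and black symbols are Saline, light and dark red are Insulin, circles are run 230 and squares run 232, and blue lines are means. Deptor peaks in M3.Pmch at 379 to 554 CPM, Gab1 in M31.Th and M25.Ghrh, and Pik3r1 in M25.Ghrh and M3.Pmch, while the 3 populations highest in Tbc1d4 overlap.

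The kinases, the mTOR complexes and the TSC complex differed in how many populations passed. Rps6kb1 lay between 104 CPM in M4.GABA and 147 CPM in M33.Glp1r/Ebf1 and passed in 2 populations. Rictor lay between 65.3 CPM in M4.GABA and 103 CPM in M32.Pdyn/Grp and passed in 3. Gsk3b lay between 215 CPM in M1.GABA, whose nuclei had a median of 1336.5 UMIs, and 338 CPM in M29.Hcrt/Npvf, and passed in 5. Mtor was higher in M31.Th (88.5 CPM, log2 0.45), M8.Nr5a1 (75.1 CPM, log2 0.37) and M11.GLUT (72.1 CPM, log2 0.29). Rptor passed in 10 populations and was highest in M25.Ghrh (240 ± 12.3 CPM, log2 0.49). Tsc1 was higher in M28.Tac2 (153 CPM, log2 0.34) and lower in M29.Hcrt/Npvf (89.1 CPM, log2 -0.41). Rheb was higher in M4.GABA (96.7 CPM, log2 0.62) and M27.Trh (102 CPM, log2 0.54) and lower in M8.Nr5a1 (45.6 ± 4.34 CPM, log2 -0.49). Akt1 passed in M24.Avp/Oxt (23.4 CPM, log2 0.71) and M28.Tac2 (22.9 CPM, log2 0.57), and Akt2 was highest in M25.Ghrh (27.2 ± 1.72 CPM, log2 0.78). Akt1 did not pass for any difference among populations (edgeR F test, adjusted p = 0.0570). Akt1s1 was lower in M30.Gal on 4 UMIs (log2 -1.89), and Pdpk1 passed only in M25.Ghrh (69.1 CPM, log2 -0.35). Mtor did not pass in M11.GLUT without TMM (log2 0.18). Rheb did not pass in M27.Trh without Insulin 230 (log2 0.43). Akt1 did not pass in M24.Avp/Oxt without Insulin 230 (log2 0.26), nor in M28.Tac2 without Insulin 232 (log2 0.34) or without Saline 230 (log2 0.61). Akt1s1 did not pass in M30.Gal by DESeq2 (log2 -1.89), without Insulin 232 (log2 -1.50) or without Saline 230 (log2 -1.83). Pdpk1 did not pass in M25.Ghrh without Insulin 230 (log2 -0.38), without Insulin 232 (log2 -0.33), without Saline 230 (log2 -0.32), without Saline 232 (log2 -0.36) or without TMM (log2 -0.32).

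The Agrp and Pomc neurons of the arcuate nucleus, which drive and restrain feeding, were each set against the average of the remaining populations. In M26.Agrp (610 nuclei) 12 of 34 genes passed, 9 higher and 3 lower, against 37.9% of all genes (21.4% higher and 16.5% lower). Besides Tbc1d4 and Shc1, the higher ones were Gab1 (18.4 ± 3.95 CPM, log2 1.30), Akt1s1 (17.3 CPM, log2 0.55), Deptor (74.0 CPM, log2 0.53), Rptor (230 ± 15.2 CPM, log2 0.40), Eif4ebp2 (43.6 CPM, log2 0.37), Tbc1d1 (93.5 CPM, log2 0.32) and Rps6kb2 (55.9 CPM, log2 0.31). Lower were Inpp5k (21.5 CPM, log2 -0.61), Phlpp1 (99.6 ± 5.67 CPM, log2 -0.61, the lowest mean of the 35 populations) and Pik3r1 (48.8 ± 14.5 CPM, log2 -0.41). In M35.Pomc (386 nuclei) 1 of 34 genes passed, Grb2 (92.3 ± 7.11 CPM, log2 0.25, edgeR adjusted p = 0.0257), against 19.8% of all genes (11.5% higher and 8.31% lower). Akt1s1 did not pass in M26.Agrp without Insulin 232 (log2 0.43). Tbc1d1 did not pass in M26.Agrp without Saline 230 (log2 0.21). Rps6kb2 did not pass in M26.Agrp without Saline 232 (log2 0.21). Pik3r1 did not pass in M26.Agrp without Saline 232 (log2 -0.29). Grb2 did not pass in M35.Pomc without Insulin 230 (log2 0.25), without Saline 230 (log2 0.24) or without Saline 232 (log2 0.26). Agrp and Pomc neurons were not tested against each other. Of the 46 other pathway genes, 40 were tested and 249 of 1400 tests passed (17.8%, against 21.2% of the tests of all genes). The 3 largest differences of these other pathway genes fell in M4.GABA, where Sgk3, a kinase related to AKT, was at 66.7 ± 28.3 CPM (log2 2.82), Prr5 had 3 UMIs and Tfeb 1 UMI.

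Between Insulin and Saline libraries no pathway gene passed in all annotated nuclei, in any of the 8 labels or in any of the 35 populations. In all nuclei 0 of the 38 genes had an adjusted p under 0.05 by edgeR's quasi-likelihood test over 21190 genes, of which 0% passed, and 0 of the 38 and 88 of all genes had an unadjusted p under 0.05. With the run as a block, since each run held 1 library of each group, the 38 genes again gave 0 and 0, and 1338 of all genes had an unadjusted p under 0.05. In neurons 37 of the 38 genes were tested among 20275. Again 0 passed (0% of all genes) and 0 had an unadjusted p under 0.05, against 103 of all genes. With the block 2 of the 37 did, against 1862 of the 20275 genes. DESeq2 gave 0 and 0 as well in all nuclei and in neurons, and with the run as a block 0 with an adjusted p under 0.05 and 0 and 1 with an unadjusted one. The median log2 change of the pathway genes was 0.025 in all nuclei and 0.017 in neurons, against 0.008 and 0.004 for all genes tested.

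In each direction, the 3 genes with the smallest unadjusted edgeR p in neurons are given, and none passed. Gsk3b in neurons was at 252 and 284 CPM in the Saline and 290 and 297 CPM in the Insulin libraries (log2 0.13 ± 0.10 (SE), edgeR unadjusted p = 0.246), and the groups did not overlap. Tbc1d4 in neurons was at 42.5 and 37.3 CPM in the Saline and 36.4 and 32.7 CPM in the Insulin libraries (log2 -0.21 ± 0.15 (SE), edgeR unadjusted p = 0.213). Deptor in neurons was at 67.4 and 93.2 CPM in the Saline and 63.5 and 70.8 CPM in the Insulin libraries (log2 -0.26 ± 0.17 (SE), edgeR unadjusted p = 0.178), and its groups overlapped. Leaving out 1 library at a time, the change of Deptor in neurons ran from log2 -0.44 without Saline 230 to -0.041 without Saline 232, and that of Tbc1d4 from -0.33 without Saline 232 to -0.073 without Saline 230. The others in neurons were Pik3r3 (log2 0.54), which had the smallest edgeR unadjusted p of the 37 at 0.103, Akt1s1 (log2 0.29) and Rptor (log2 -0.09). In all nuclei the smallest were those of Pik3cg (log2 0.67, 255 UMIs), Pik3r3 (log2 0.44) and Gsk3b (log2 0.11) above 0, and of Tbc1d4 (log2 -0.22), Rptor (log2 -0.10) and Tsc1 (log2 -0.09) below 0, each with an edgeR adjusted p of 1.00. Of the 255 UMIs of Pik3cg, 192 were in microglia. Microglia had 71 and 99 nuclei in the Saline and 134 and 138 in the Insulin libraries. The sum over all nuclei does not separate the number of microglia from their level of Pik3cg. With the makeup of types held fixed, these 6 genes kept their direction and 0 of the 38 passed. With 1 library left out, Akt1s1 in neurons ran from log2 0.13 (without Saline 230 or Insulin 232) to 0.49 (without Saline 232). In all nuclei Pik3cg ran from log2 0.36 (without Saline 230) to 1.07 (without Saline 232), Tbc1d4 from -0.32 (without Saline 232) to -0.10 (without Saline 230) and Tsc1 from -0.17 (without Insulin 232) to -0.00798 (without Insulin 230). In all nuclei both Insulin libraries lay above both Saline libraries for 5 of the 38 genes and below them for 3, against 8.44% and 10.2% of all genes. In neurons this held for 7 and 4 of 37, against 8.74% and 11.6%.

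The size of change these libraries could show differed by gene. In neurons the 95% confidence interval of the log2 change, not adjusted for the number of genes, lay within a 1.5-fold change in either direction for 25 of the 37 genes and within a 2-fold change for 33. In all nuclei it did so for 28 and 34 of the 38. The narrowest in neurons was that of Tbc1d1, which reached log2 0.26 at its farther bound, and the widest that of Eif4ebp1 at 1.32. In Ependymo 0 of the 22 genes tested and in Mural Cell 0 of the 23 had an interval within a 1.5-fold change. All these intervals come from the fit without the run as a block, so they leave out the pairing by run. In neurons the median SE of the 37 genes was log2 0.136 in that fit and 0.108 with the block.

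**Figure D5:**
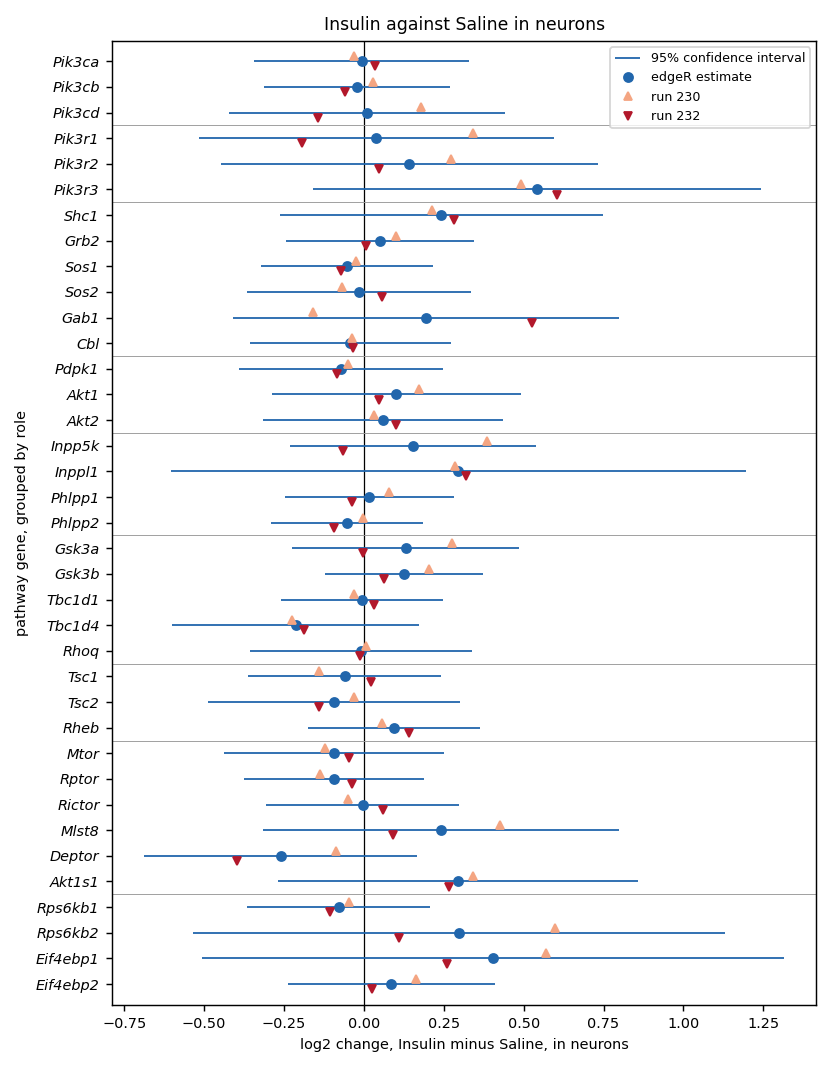
Log2 change between Insulin and Saline libraries in neurons for the 37 pathway genes tested, grouped by role. Blue circles and bars are edgeR estimates with 95% confidence intervals, from the fit without the run as a block. Triangles are the Insulin minus Saline difference within run 230 and within run 232. All 37 intervals include 0.

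Among the 35 populations 1046 tests of pathway genes gave 0 past the threshold (0.000835% of the tests of all genes passed), and 15 had an unadjusted p under 0.05, or 1.43% against 2.14% of the tests of all genes. With the run as a block the 15 became 37 of the 1046, where 6.53% of the tests of all genes had an unadjusted p under 0.05. With that block 0 passed, against 0.134% of the tests of all genes. Both Insulin libraries lay above both Saline libraries in 186 of the 1046 tests and below in 151, against 14.2% and 13.8% of the tests of all genes. The smallest p were those of Deptor in M7.Ust, at 136 and 142 CPM in the Saline and 94.2 and 92.3 CPM in the Insulin libraries (log2 -0.58 ± 0.19 (SE), edgeR unadjusted p = 0.00809), and of Pik3r1 in M26.Agrp, at 35.6 and 37.1 CPM in the Saline and 58.7 and 63.8 CPM in the Insulin libraries (log2 0.73 ± 0.23 (SE), edgeR unadjusted p = 0.0089). Both had an edgeR adjusted p of 1.00, and with the run as a block 0.326 and 0.183. Tbc1d4 in M26.Agrp was at 122 and 78.6 CPM in the Saline and 68.5 and 73.7 CPM in the Insulin libraries (log2 -0.54, edgeR unadjusted p = 0.0564). These 3 were picked after their values were seen. Leaving out 1 library, so that 1 group had a single library assumed to vary like the other, gave calls in edgeR. Without Saline 232, the calls were Rps6kb2 in M5.Snypo2 (log2 2.35), M21.Nfix (log2 1.26), M32.Pdyn/Grp (log2 1.15) and M11.GLUT (log2 0.91), and Pdpk1 in M24.Avp/Oxt (log2 1.70), or 5 of 1061 tests, where 132 to 348 of all genes passed in these populations. Without Saline 230, the call was Pik3r1 in M34.Esr1/Npy1r (log2 -0.98), 1 of 1072, where 39 of 10874 genes passed. Among the 8 labels 0 of 248 tests passed (0% of the tests of all genes, or 0 and 0.0724% with the block). An unadjusted edgeR p under 0.05 was found for 3 of the 248. These were Eif4ebp2 in Mural Cell (log2 1.13), Gab1 in Endothelial (log2 -0.38) and Deptor in OPC (log2 -0.74). Of all genes, 148 of 5855, 375 of 11427 and 127 of 11263 had such a p in these labels. With the block 9 of the 248 did. These were 3 in OPC, 2 in neurons, 2 in Endothelial, 1 in Mural Cell and 1 in oligodendrocytes. Of all genes, 696 of 11263, 1862 of 20275, 642 of 11427, 175 of 5855 and 531 of 11476 then did in these labels. Astrocytes, microglia and Ependymo had 0, against 1044 of 13897, 216 of 8527 and 268 of 5732 of all genes. Gab1 in microglia passed without Insulin 232 (log2 1.29, as did 665 of 8864 genes), and Rptor in oligodendrocytes without Saline 232 (log2 -0.73, as did 374 of 11859 genes).

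Whether the effect of insulin differed between the 8 labels was tested by the terms of label by treatment together in edgeR. Of the 38 genes 0 passed and 0 had an unadjusted p under 0.05, against 0% and 416 of the 14597 genes. The smallest unadjusted p among the 38 was that of Rptor, 0.057.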

How the data were processed

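Single-nucleus libraries of mouse mediobasal hypothalamus were deposited as 1 matrix of UMI counts per gene and barcode, with the authors' cell type and neuron population labels. Cell Ranger and GRCm38 are named in the submitters' processing notes, and other steps are not given in the sources used here. UMI counts were summed per library within each label, leaving out the 423 nuclei labelled as doublets and the 1116 left unassigned by the authors, which enter only the sums over all 36523 nuclei. No further doublet caller was run. Types and populations needed at least 10 nuclei in every library. Sums were tested with edgeR 4.0.16 (R 4.3.3, limma 3.58.1; quasi-likelihood, TMM, a minimum count of 10 and a minimum total of 15, Benjamini-Hochberg over all genes, threshold 0.05, prior count 0.125), after the code was tested on simulated data. Fits across labels held the library as a term, and Insulin was tested against Saline without a covariate. Library names carry no replicate number, so the run named in the deposited annotation, which also separates the sexes, was the block: run differences of Saline and Insulin correlated at 0.70 over 21190 genes in all nuclei and at 0.73 over 20275 in neurons. Alternatives were RLE or no scaling, UMIs per nucleus, no filter or a minimum count of 50, no library term, DESeq2 1.42.0, thinning, the makeup of types held fixed, the block, and each library left out. The named genes are, per label, the 3 with the largest difference past the threshold, the 20 largest differences over populations (at most 3 a gene), the widest and narrowest ranges, the genes past the threshold in Agrp and Pomc neurons, the smallest insulin p-values, a set of core genes and paralog pairs. Members and lists were chosen with earlier results of these data known. Limits for 0 counts take 3 counts. Coordinates are from GENCODE vM21. Antisense genes overlap 12 of the 38 (Mtor, Rptor, Mlst8, Akt1s1, Tsc2, Rps6kb1, Rps6kb2, Gsk3a, Inppl1, Sos1, Gab1 and Rhoq), and strand use in counting is not given in the sources used here, so their reads cannot be told apart. Depth was 63590421 to 71391593 UMIs a library.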

Additional observations from a re-analysis of the deposited data

Results flagged for a closer look

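The deposited count matrix held 4633 barcodes with no cell type in the annotation, and no comparison used them. All 38 pathway genes were detected in these barcodes, with 91657 UMIs in all. Their summed level was 2467 CPM, where a count of 0 would allow up to 0.0808 CPM, for counting error only. The annotated nuclei of the 4 libraries had a summed level of 2412 to 2480 CPM, and the barcodes without a label lay inside that range. The series has no empty-droplet or other control samples for this value.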

How the results depend on the processing

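The counts of pathway genes past the threshold were recomputed under each alternative. The matching shares of all genes are not given here, so a change in these counts is not read as particular to the pathway genes. Across cell types the 144 calls ranged from 116 to 135 when 1 library was left out, and across neuron populations the 245 ranged from 188 to 198. Thinning every sum to the smallest total left 208 tests and 75 calls across types, 72 of them shared with the 144, and 420 tests and 38 calls across populations, 37 of them shared with the 245, because fewer UMIs and genes remain. Any difference was then called for 23 of 26 genes across types and 5 of 12 across populations, against 36 of 38 and 29 of 34. As UMIs per nucleus 460 calls were made across populations, and the cause was not tested. The median of all genes moved by log2 -1.06 to 1.28 across types and by -2.17 to 0.60 across populations on that scale, and by up to 0.27 and 0.34 without TMM scaling. DESeq2 gave 150 and 260 calls, 138 and 237 of them shared, and has no F test here. Without TMM scaling 145 and 278 calls were made, of which 117 and 205 were shared with the 144 and the 245. Without the library term 127 and 188 calls were made, all of them shared. Without the nuclei labelled Endothelial and Mural Cell, chosen after seeing the data, 108 of 222 tests passed and Tbc1d4 in neurons turned from log2 -0.30 to 0.06, not past the threshold. Without M1.GABA, also chosen after seeing the data, 250 of 1156 tests passed. Between Insulin and Saline, the replicate block (the run) gave 0 calls in all nuclei, in the labels and in the populations, so the pairing changed no call. Leaving out 1 library gave 0 in all nuclei, 0 to 1 call in the labels and 0 to 5 in the populations. Leaving out 1 library at a time, the change of Rptor ranged from log2 -0.21 to 0.0185 in all nuclei and from -0.18 to 0.00859 in neurons, positive without Saline 230. The difference of the insulin effect between labels gave 0 calls under each alternative run. With 2 libraries a group, 2 residual degrees of freedom, or 1 with the block, limit every insulin test, and the Ependymo and Mural Cell labels and the smallest populations rest on few UMIs.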
